A study of Mus musculus with 9 samples.

Results

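Loss of SCG2 on a LILRB4+/+ background was examined in tumour-derived monocytic myeloid-derived suppressor cells (M-MDSCs) by comparing 3 libraries of genotype LILRB4+/+ SCG2-/- (SCG2 knockout libraries) with 3 libraries of genotype LILRB4+/+ (LILRB4 libraries). The 6 libraries were taken by their genotype labels from the 9 of the series, and the other 3 are of WT mice. Every mouse bore a tumour of MC38, a mouse colon carcinoma line, and every library was made from poly-A RNA of M-MDSCs sorted from the tumour with a kit that keeps the strand. Both groups compared carry LILRB4+/+, so they differ by label in SCG2 alone. Nothing in the labels describes the LILRB4+/+ allele, the way SCG2 was deleted and in which cells, the sorting gate, or the mouse behind a library. P-values therefore measure the spread between these libraries, which may be technical.

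LILRB4 is an inhibitory receptor of the leukocyte immunoglobulin-like receptor family, found on monocytes, macrophages and dendritic cells. Such receptors carry immunoreceptor tyrosine-based inhibitory motifs (ITIMs) in their tails, which recruit phosphatases such as SHP-1 when the receptor is engaged. Secretogranin II, the product of SCG2, is a protein of neurosecretory granules that is cut into peptides such as secretoneurin. M-MDSCs are immature monocyte-like cells that gather in tumours and restrain T cells through arginase, nitric oxide synthase, reactive oxygen and cytokines such as IL-10 and TGF-beta. The series title also names IL-6 signalling, in which the IL-6 receptor and gp130 activate JAK kinases and the transcription factor STAT3.

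The authors deposited counts for 9877 genes and FPKM values (fragments scaled to gene length and sequencing depth) for 54532 genes. Whole counts behind the FPKM values could be recovered for 100% of values, and these are called recovered counts. The count table summed to 17740597, 16407643 and 14501163 counts in SCG2 knockout replicates 1 to 3, and to 17175759, 24401452 and 27219202 in LILRB4 replicates 1 to 3. The tables were not equal in 47 genes, and both values are given for these. Scg2 had 0, 0 and 0 recovered counts in SCG2 knockout libraries, against 1, 0 and 0 in LILRB4 libraries and 1, 0 and 0 in WT libraries. Levels are given in CPM, counts scaled to a common library size. A library without a count of Scg2 can still hold up to 0.107 to 0.200 CPM, the level of 3 counts in the deepest and in the shallowest of the 9 libraries, for counting error alone. Scg2 was thus below what this depth can show in all groups, and the knockout label could not be checked with it. Genes of monocytes were detected in both groups, with Ly6c2 at 1431, 1758 and 1531 recovered counts in SCG2 knockout libraries and 2109, 3334 and 3683 in LILRB4 libraries. Ly6c2 is among the 47 genes, and in LILRB4 replicate 1 it was deposited at 3109 counts. Ccr2, the receptor that draws monocytes into tissue, had 2596, 2200 and 1925 counts in SCG2 knockout libraries and 1677, 7908 and 2456 in LILRB4 libraries. Ly6g, which marks neutrophils, had 0, 0 and 2 counts in SCG2 knockout libraries and 0, 0 and 0 in LILRB4 libraries. LILRB4 replicate 2 stood apart from the other libraries of its group: the summed level of 29 T and NK cell markers was 448 CPM there, against 2966 and 2342 CPM in LILRB4 replicates 1 and 3, and that of 18 monocyte markers was 15472 CPM, against 8271 and 8379 CPM.

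The promoters of 5 genes are printed here because the genes lead the groups described next. Nppb, Cyr61 and Amotl2 are among the genes with the smallest p-values on the higher side, and Hspa1b and Hsph1 have the largest fold changes of the chaperones whose level was higher in every SCG2 knockout library. Each runs from 250 bases before to 50 bases after a RefSeq gene start on GRCm38.p6. Capitals mark CATTCC or its complement GGAATG, the core of the site bound by TEAD factors, in the first 3 promoters, and GAANNTTC, the core of the heat shock element, in the other 2. Nppb lies at chr4:147985650-147985949 (+), Cyr61, which RefSeq calls Ccn1, at chr3:145649936-145650235 (-), Amotl2 at chr9:102717554-102717853 (+), Hspa1b at chr17:34959189-34959488 (-), and Hsph1 at chr5:149636287-149636586 (-), 1 of its 2 listed windows.
Nppb: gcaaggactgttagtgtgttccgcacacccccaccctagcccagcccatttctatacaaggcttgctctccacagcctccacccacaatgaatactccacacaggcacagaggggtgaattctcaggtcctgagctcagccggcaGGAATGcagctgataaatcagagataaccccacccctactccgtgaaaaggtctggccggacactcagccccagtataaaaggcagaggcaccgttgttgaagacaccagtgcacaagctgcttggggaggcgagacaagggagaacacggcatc
Cyr61: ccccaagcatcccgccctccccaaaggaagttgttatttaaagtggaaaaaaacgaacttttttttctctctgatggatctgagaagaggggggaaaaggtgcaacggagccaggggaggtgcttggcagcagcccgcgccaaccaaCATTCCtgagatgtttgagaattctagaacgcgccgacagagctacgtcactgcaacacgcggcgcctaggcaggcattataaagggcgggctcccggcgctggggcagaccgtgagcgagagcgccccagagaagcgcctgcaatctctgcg
Amotl2: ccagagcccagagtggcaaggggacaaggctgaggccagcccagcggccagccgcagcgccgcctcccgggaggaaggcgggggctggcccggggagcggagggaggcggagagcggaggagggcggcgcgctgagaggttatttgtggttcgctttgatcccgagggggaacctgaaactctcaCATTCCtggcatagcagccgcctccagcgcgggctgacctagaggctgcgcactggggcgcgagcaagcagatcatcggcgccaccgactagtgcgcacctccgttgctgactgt
Hspa1b: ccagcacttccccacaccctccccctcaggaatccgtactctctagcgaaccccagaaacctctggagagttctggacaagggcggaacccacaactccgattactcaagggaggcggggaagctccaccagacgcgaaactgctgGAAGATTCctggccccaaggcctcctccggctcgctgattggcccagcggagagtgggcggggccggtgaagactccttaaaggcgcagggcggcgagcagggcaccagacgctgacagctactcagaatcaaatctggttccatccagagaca
Hsph1: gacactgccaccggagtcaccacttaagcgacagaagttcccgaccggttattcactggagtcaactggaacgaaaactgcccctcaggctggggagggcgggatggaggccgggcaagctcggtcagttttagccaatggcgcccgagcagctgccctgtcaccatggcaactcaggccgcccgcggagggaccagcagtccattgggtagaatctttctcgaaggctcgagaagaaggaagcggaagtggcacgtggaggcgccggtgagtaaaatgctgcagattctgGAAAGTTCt
Both strands were searched. CATTCC was in 8 of the 12 genes matched among 16 YAP and TEAD target genes (66.7%), and in 14.7% of all 32851 promoter windows of the RefSeq table. GAANNTTC was in 8 of the 11 genes matched among 14 heat shock chaperones (72.7%), and in 7.86% of all windows. A listed gene counted if any of its windows held the motif, so the shares of genes and of windows are of unlike units. The shares describe listed genes whatever their level, so they say nothing of the groups compared. Nppb is not on the YAP and TEAD list, and Enc1 and Lyz2, with smaller p than Amotl2 and Cyr61, are not printed. A match is a description of the letters and not a bound site.

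No gene differed between SCG2 knockout and LILRB4 libraries past an adjusted p of 0.05 in edgeR's quasi-likelihood test with Benjamini-Hochberg adjustment. The test called 0 of 9877 genes higher (0%) and 0 lower (0%), and the smallest adjusted p was 0.204. At an unadjusted p under 0.05, 482 genes stood higher in SCG2 knockout libraries (4.88%) and 610 lower (6.18%). Scaling by DESeq2's size factors in place of TMM changed this split to 360 higher and 726 lower. The median log2 fold change of all genes was 0.03, and without LILRB4 replicate 2 the numbers at an unadjusted p under 0.05 were 357 higher and 483 lower. In 974 genes (9.86%) every SCG2 knockout library was above every LILRB4 library, and in 859 genes (8.70%) every SCG2 knockout library was below. DESeq2, a second count model, called 12 genes higher (0.121%) and 175 lower (1.77%) at an adjusted p under 0.05. It gave no adjusted p for 2490 genes. With recovered counts DESeq2 called 15 genes higher (0.0953%) and 150 lower (0.953%) of 15743 tested. Of the calls, 5 of the 12 higher genes and 114 of the 175 lower genes were shared between these 2 DESeq2 fits. The genes below are therefore given with their values in every library, and the words higher and lower describe those values and not a call by edgeR.

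**Figure D1:**
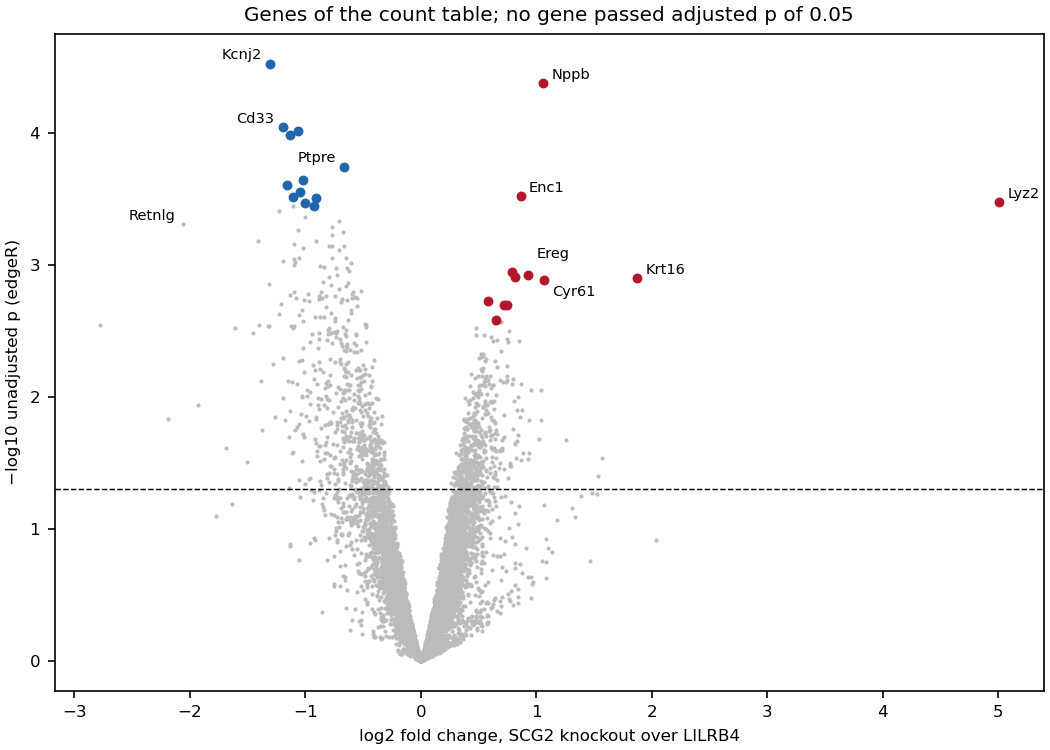
Each point is 1 of 9877 genes of the count table. The horizontal axis is the log2 fold change of SCG2 knockout over LILRB4 libraries and the vertical axis is −log10 of the unadjusted edgeR p. Red and blue points are the 12 genes with the smallest p on the higher and on the lower side, the dashed line is an unadjusted p of 0.05, and Lyz2 lies farthest to the right at a log2 fold change of 5.0.

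Nppb, which encodes brain natriuretic peptide, a hormone best known from the heart, had the smallest p on the higher side. It stood at 47.1, 43 and 44.8 CPM in SCG2 knockout libraries, against 20.7, 20.5 and 23.6 CPM in LILRB4 libraries and 30.1, 41.3 and 29.99 CPM in WT libraries (CPM of the count table with TMM-scaled library sizes). The groups did not overlap, and the log2 fold change was 1.06 (SE 0.16, edgeR adjusted p = 0.204, DESeq2 adjusted p = 7.11e-05). Npr2, a receptor for C-type natriuretic peptide, was the other tested gene of the natriuretic peptide list and stood at 17.1, 13.3 and 21.2 CPM in SCG2 knockout libraries, against 12.1, 12 and 13 CPM in LILRB4 libraries. The groups did not overlap, beside 9.86% of all genes with every knockout library above. The other 4 of the 6 listed genes were not in the count table.

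Enc1, an actin-binding protein of the kelch family, stood at 102, 119 and 124 CPM in SCG2 knockout libraries, against 68.6, 51.3 and 70.1 CPM in LILRB4 libraries (log2 fold change 0.86, SE 0.17, edgeR adjusted p = 0.222, DESeq2 adjusted p = 0.00151). Its 3 WT values, 82.8, 62.4 and 76.2 CPM, were all below those of the knockout. Ereg, which encodes the EGF receptor ligand epiregulin, stood at 20.4, 14.3 and 20.8 CPM in SCG2 knockout libraries and 9.36, 9.0 and 10.7 CPM in LILRB4 libraries (log2 fold change 0.93, SE 0.21, edgeR adjusted p = 0.235). Again no library of the knockout overlapped with either other group. The other tested EGF family ligands of the count table, Nrg1, Hbegf and Areg, had log2 fold changes of -0.32, -0.20 and -0.15, and with recovered counts Egf had 47, 45 and 43 counts in SCG2 knockout libraries, against 27, 19 and 31 in LILRB4 libraries (log2 fold change 1.15, SE 0.44, edgeR adjusted p = 0.5).

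Krt16, a keratin of stressed epithelium, stood at 22.8, 21.2 and 20.7 CPM in SCG2 knockout libraries, against 6.95, 2.60 and 8.18 CPM in LILRB4 libraries and 17, 7.87 and 7.22 CPM in WT libraries. Its log2 fold change was 1.87 (SE 0.43, edgeR adjusted p = 0.235), the second largest of the 12 genes with the smallest p on this side. Gata2, a transcription factor of blood progenitors and mast cells, stood at 16.2, 12.9 and 13.1 CPM in SCG2 knockout libraries, against 7.88, 8.37 and 7.78 CPM in LILRB4 libraries (log2 fold change 0.81, SE 0.19). Beside Gata2, the summed level of 10 mast cell and basophil markers was 53, 80.6 and 78.4 CPM in SCG2 knockout libraries, against 61.9, 16.2 and 38.2 CPM in LILRB4 libraries, with Prss34 at 0 counts in all 6, and its part in the Gata2 values was not tested. The remaining genes on this side with the smallest p had log2 fold changes of 0.58 for Pcmtd2, 0.72 for the zinc exporter gene Slc30a1, 0.75 for the spindle protein gene Fam83d and 0.65 for the homeobox gene Shox2. Of the 12 genes, 8 were called by DESeq2, and the other 4 (Ereg, Gata2, Krt16 and Shox2) were given no adjusted p by it. In 6 of the 12 (Nppb, Enc1, Lyz2, Ereg, Gata2 and Krt16) the range of the knockout libraries also lay apart from that of the WT libraries, and in the other 6 it met it. The 12 were picked by their difference from LILRB4 libraries, and the share over all genes was not computed.

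Amotl2, an angiomotin relative that binds YAP, and Cyr61, a matrix-associated signalling protein, are both known targets of the YAP coactivator and its TEAD partners, and their promoters are printed above. Amotl2 stood at 86.3, 82.1 and 116 CPM in SCG2 knockout libraries, against 48.9, 61.1 and 54.9 CPM in LILRB4 libraries (log2 fold change 0.79, SE 0.18, edgeR adjusted p = 0.235, DESeq2 adjusted p = 0.0141). Cyr61 stood at 499.5, 429 and 620.5 CPM in SCG2 knockout libraries, against 225, 228 and 288 CPM in LILRB4 libraries (log2 fold change 1.06, SE 0.25, edgeR adjusted p = 0.235, DESeq2 adjusted p = 0.00469). Ankrd1, a nuclear ankyrin-repeat protein, stood at 162, 156 and 227 CPM in SCG2 knockout libraries, against 97.4, 65 and 118 CPM in LILRB4 libraries. All 3 genes were higher in every SCG2 knockout library than in any LILRB4 library, while the WT values of Amotl2 and Cyr61, 114, 81 and 99.5 CPM and 659.6, 369 and 366 CPM, overlapped with those of the knockout. They were the only such members of the 15 tested, and in 2 members every SCG2 knockout library was below. Over all genes, 9.86% had every knockout library above and 8.70% below. Of 15 tested YAP and TEAD target genes 11 had a positive log2 fold change, and the median was 0.40, beside 0.03 over all genes (0.20 without SCG2 knockout replicate 3 and 0.30 without LILRB4 replicate 1). At an unadjusted p under 0.05, 4 were higher, the fourth being Tead1 (0.43), and 2 were lower, F3 (-0.82), which encodes tissue factor, and Lats2 (-0.47), a kinase that restrains YAP. Over all genes these shares were 4.88% higher and 6.18% lower. No member passed the adjusted threshold in edgeR.

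**Figure D2:**
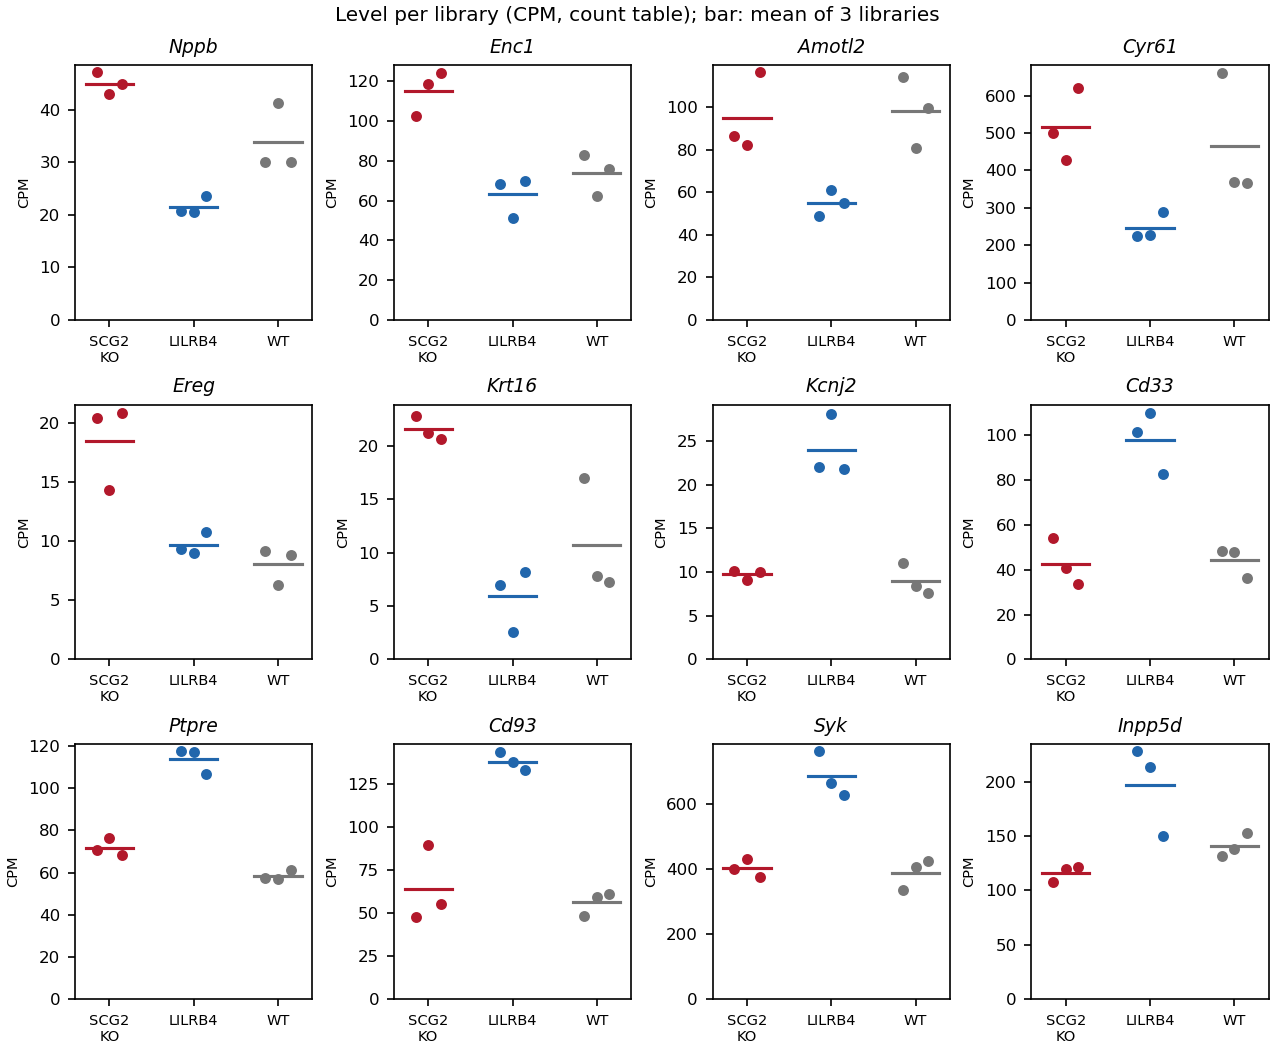
Each panel is 1 gene, and each point 1 library, at its level in CPM of the count table (linear axis from 0), for SCG2 knockout, LILRB4 and WT from left to right with the mean of 3 libraries as a bar. Nppb, Enc1, Amotl2, Cyr61, Ereg and Krt16 are higher in every SCG2 knockout library than in any LILRB4 library, and Kcnj2, Cd33, Ptpre, Cd93, Syk and Inpp5d are lower in every one.

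Lyz2, which encodes the lysozyme of macrophages and neutrophils, had the largest fold change of all genes of the count table. It stood at 1179, 471 and 359 CPM in SCG2 knockout libraries, against 15.3, 24.4 and 22.8 CPM in LILRB4 libraries and 16.5, 107 and 147 CPM in WT libraries. The log2 fold change was 5.0 (SE 0.85, edgeR adjusted p = 0.222, DESeq2 adjusted p = 3.05e-06). Every knockout library was above every other library, and WT replicate 1 was as low as the LILRB4 libraries. WT replicate 1 enters the shared estimate of the spread, and without it the edgeR adjusted p of Lyz2 was 0.0458. With the 6 libraries of the comparison alone, and so without any WT library, it was 0.172. Without any other single library it was 0.156 to 0.748, with log2 fold changes of 4.29 to 5.27. Lyz1, the neighbouring near copy of Lyz2, stood at 22.1, 16.2 and 21.1 CPM in SCG2 knockout libraries, against 23.8, 44.4 and 23.3 CPM in LILRB4 libraries (log2 fold change -0.62, SE 0.35, edgeR adjusted p = 0.541), so the signs of the pair were opposite, and reads shared by the copies could be split between them. Both genes lie on chromosome 10, Lyz2 at chr10:117277331-117282321 and Lyz1 at chr10:117287797-117292868, on the minus strand.

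Gm42031, a lincRNA gene on the minus strand at chr8:85125872-85132289 that is absent from the count table, had the same order of groups as Lyz2. It had 815, 1243 and 1558 recovered counts in SCG2 knockout libraries, against 8, 4 and 11 in LILRB4 libraries and 10, 180 and 226 in WT libraries. As a share of each library this is 44.4, 73.4 and 104 CPM in SCG2 knockout libraries, against 0.459, 0.160 and 0.392 CPM in LILRB4 libraries and 0.510, 7.43 and 11.7 CPM in WT libraries. The log2 fold change was 7.66 (SE 1.10, edgeR adjusted p = 0.23 on recovered counts of all genes, DESeq2 adjusted p = 2.75e-10). With the 6 libraries of the comparison alone the edgeR adjusted p was 0.000539, and without WT replicate 1 it was 3.04e-05. Without any other single library it was 0.193 to 0.936. WT replicate 1 again lay with the LILRB4 libraries, and WT replicates 2 and 3 lay between them and the knockout. Nothing in the files gives the function of this transcript.

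**Figure D3:**
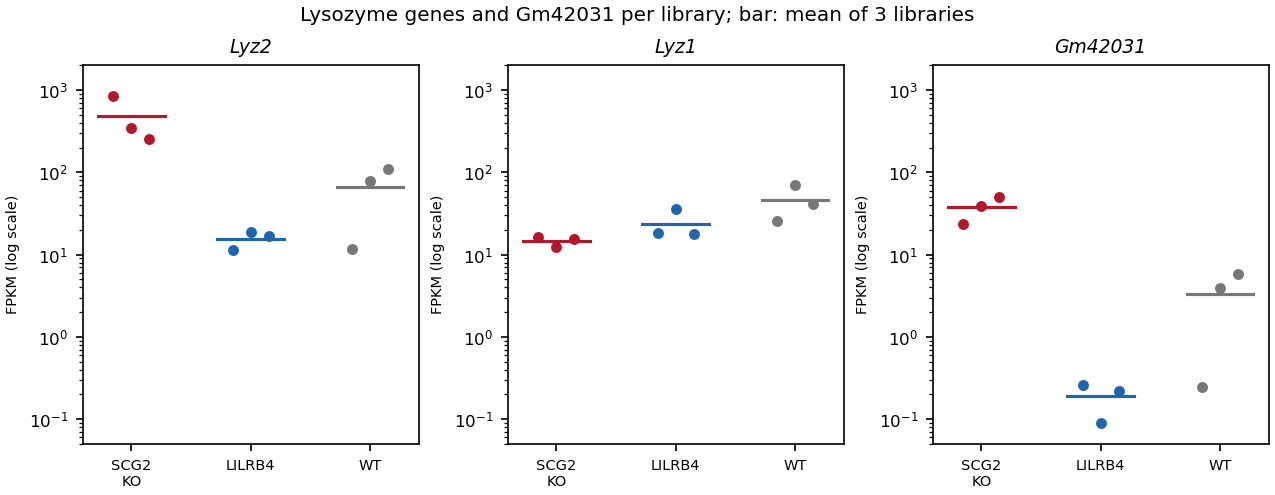
FPKM per library on a shared logarithmic axis for Lyz2, Lyz1 and Gm42031, with 1 point per library for SCG2 knockout, LILRB4 and WT from left to right and the mean of 3 as a bar. Lyz2 and Gm42031 are highest in the 3 SCG2 knockout libraries and low in the 3 LILRB4 libraries and WT replicate 1, and Lyz1 is not.

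Heat shock chaperones, which fold proteins and are induced by heat and other stress, had the highest list median. All 14 tested members had a positive log2 fold change (13 without SCG2 knockout replicate 1 and 13 without LILRB4 replicate 2), from 0.09 for Hspa4 to 1.57 for Hsph1, with a median of 0.88 beside 0.03 over all genes. Hspa1b, an inducible HSP70, stood at 2326, 1464 and 1514 CPM in SCG2 knockout libraries, against 613, 303 and 911 CPM in LILRB4 libraries (log2 fold change 1.54, SE 0.63, edgeR adjusted p = 0.425). Its near copy Hspa1a stood at 1214, 683 and 604 CPM in SCG2 knockout libraries and 322, 179.8 and 393 CPM in LILRB4 libraries, and reads could be split between the copies. Hsph1, an HSP110 chaperone, stood at 1099.8, 627 and 767 CPM in SCG2 knockout libraries, against 317, 166 and 357 CPM in LILRB4 libraries (log2 fold change 1.57, SE 0.60, edgeR adjusted p = 0.402). Dnajb1, an HSP40 co-chaperone, stood at 445, 343 and 421 CPM in SCG2 knockout libraries and 205, 148 and 279 CPM in LILRB4 libraries, and Hsp90aa1, an inducible HSP90, at 2563, 1527 and 1567 CPM in SCG2 knockout libraries and 911, 745 and 1126 CPM in LILRB4 libraries.

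In 10 of the 14 chaperone genes every SCG2 knockout library was above every LILRB4 library, beside 9.86% of all genes. The WT libraries held 4137, 865 and 1045 CPM of Hspa1b, so that WT replicate 1 was the highest of all 9 libraries. At an unadjusted p under 0.05, 7 members were higher, beside 4.88% of all genes. That number depended on single libraries: it was 0 without LILRB4 replicate 2, 1 without LILRB4 replicate 1 and 1 without SCG2 knockout replicate 1, with medians of 0.74, 0.81 and 0.60. The summed level of the list was 23821, 18798 and 18427 CPM in SCG2 knockout libraries, against 13482, 10846 and 15596 CPM in LILRB4 libraries and 27103, 13934 and 15813 CPM in WT libraries. The exact two-sided permutation test over the 6 libraries gave p = 0.1, the smallest that 3 against 3 libraries allow.

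Genes of the cell cycle stood slightly higher in SCG2 knockout libraries. All 23 mitosis and spindle genes had a positive log2 fold change, with a median of 0.36, and 17 of 18 tested S-phase and replication genes did, with a median of 0.34 (0.21 without LILRB4 replicate 1). Ccna2, the cyclin of S phase and mitosis, stood at 81.2, 70.3 and 81.9 CPM in SCG2 knockout libraries, against 46.4, 59.5 and 56.8 CPM in LILRB4 libraries (log2 fold change 0.52, SE 0.15, edgeR adjusted p = 0.298). Prc1, which bundles spindle microtubules, stood at 50.8, 53.4 and 65.2 CPM in SCG2 knockout libraries, against 35.8, 43.1 and 37.8 CPM in LILRB4 libraries, and Mcm5, a subunit of the replicative helicase, at 172, 167 and 157 CPM in SCG2 knockout libraries, against 105, 136 and 128 CPM in LILRB4 libraries. For all 3 genes the groups did not overlap, and the WT libraries overlapped with the knockout or lay above it, with 84, 104 and 102 CPM of Ccna2. Every SCG2 knockout library was above every LILRB4 library in 12 of 23 mitosis genes and 12 of 18 S-phase genes. Over all genes this share was 9.86%. At an unadjusted p under 0.05, 6 mitosis genes and 8 S-phase genes were higher, beside 4.88% of all genes. Without LILRB4 replicate 1 these numbers were 2 and 0. Without SCG2 knockout replicate 3 they were 2 and 2, and the S-phase number was also 1, 4 and 2 without SCG2 knockout replicate 1, SCG2 knockout replicate 2 and LILRB4 replicate 3.

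Markers of fibroblasts, a cell type other than the sorted one, stood higher with these genes. All 14 tested fibroblast markers had a positive log2 fold change, with a median of 0.42 (0.25 without SCG2 knockout replicate 3, and 0.32 with 13 of 14 positive without LILRB4 replicate 2). Beside 4.88% of all genes, 4 were higher at an unadjusted p under 0.05 (0 without LILRB4 replicate 2, 0 without SCG2 knockout replicate 3, 2 without LILRB4 replicate 1 and 7 without LILRB4 replicate 3). Fbln2, which encodes a fibulin of the matrix, stood at 583, 619.9 and 792 CPM in SCG2 knockout libraries, against 441, 494 and 539 CPM in LILRB4 libraries (log2 fold change 0.44, SE 0.18, edgeR adjusted p = 0.413). Col1a2, a chain of type I collagen, stood at 486, 331 and 447 CPM in SCG2 knockout libraries, against 328, 249 and 340.1 CPM in LILRB4 libraries, with an overlap. The summed level of all 17 listed markers was 6268, 5615 and 7782 CPM in SCG2 knockout libraries, against 4523, 4173 and 5385 CPM in LILRB4 libraries and 7450.0, 5575 and 6695 CPM in WT libraries. None of the 17 was at 0 counts in all 6 libraries. The part of fibroblast RNA in the levels of the YAP and TEAD targets was not tested. Matrix-degrading enzymes and their inhibitors had no common side, with 12 of 19 negative, a median of -0.12, and 3 higher and 5 lower members at an unadjusted p under 0.05. Of 15 TGF-beta genes 3 were higher and 3 lower by that measure, with a median of 0.02. Over all genes it gave 4.88% higher and 6.18% lower, the shares to set beside both lists.

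Kcnj2, which encodes the inward-rectifier potassium channel Kir2.1, had the smallest p of all genes. It stood at 10.1, 9.09 and 10.005 CPM in SCG2 knockout libraries, against 22, 28.1 and 21.9 CPM in LILRB4 libraries and 11.1, 8.38 and 7.62 CPM in WT libraries. The knockout libraries lay within the WT range, and every LILRB4 library was above both groups (log2 fold change -1.30, SE 0.19, edgeR adjusted p = 0.204). Of 5 potassium channel genes tested with deposited counts, 4 had a negative log2 fold change, including Kcna3 (-0.70), a channel of lymphocytes and macrophages, and Kcnk6 (-0.39).

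Cd33, a sialic acid-binding receptor of myeloid cells, stood at 53.8, 40.6 and 33.5 CPM in SCG2 knockout libraries, against 101, 109 and 82.6 CPM in LILRB4 libraries (log2 fold change -1.20, SE 0.20, edgeR adjusted p = 0.204, DESeq2 adjusted p = 8.42e-05). The groups did not overlap, and the WT libraries, at 48.3, 48 and 36.2 CPM, lay with the knockout. Ptpre, which encodes the tyrosine phosphatase PTP epsilon, stood at 70.9, 76.5 and 68.3 CPM in SCG2 knockout libraries and 118, 117 and 107 CPM in LILRB4 libraries (log2 fold change -0.66, SE 0.12, edgeR adjusted p = 0.222). Cd93, a lectin-like receptor of monocytes and endothelium, stood at 47.7, 89.3 and 55.2 CPM in SCG2 knockout libraries, against 143, 138 and 133 CPM in LILRB4 libraries (log2 fold change -1.11, SE 0.21, edgeR adjusted p = 0.222). SCG2 knockout replicate 2 was the highest of its group for Cd93 and was still below every LILRB4 library.

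The other genes on the lower side with the smallest p were Mthfsl, St7, Arid3a, Rab44, Pstpip2, Ankrd33b, Ifi203 and Pirb, with log2 fold changes of -1.06, -1.13, -1.02, -1.15, -1.04, -0.91, -1.0 and -0.92. Arid3a encodes a DNA-binding protein, Rab44 a large Rab GTPase and Pstpip2 an F-BAR protein that restrains inflammation in mice. Ifi203 belongs to an interferon-inducible family with close copies, so its reads could be shared. St7 stood at 29.9, 32.5 and 28.7 CPM in SCG2 knockout libraries, against 61.6, 79.2 and 58.8 CPM in LILRB4 libraries, and Rab44 at 81.2, 64.9 and 71.7 CPM in SCG2 knockout libraries, against 156, 218 and 111 CPM in LILRB4 libraries. The edgeR adjusted p of the 12 genes ran from 0.204 to 0.222, and DESeq2 called 11 of them, with no adjusted p for Kcnj2. The knockout range met the WT range in 9 of the 12, and lay apart from it in Ptpre, Ankrd33b and Pirb. These 12 were also picked by their difference from LILRB4 libraries, which favours genes where the LILRB4 libraries stand apart. The share over all genes was not computed, so a return to WT levels was not tested. Pirb, an ITIM receptor with close relatives in the Pira family, is among the genes whose counts differ between the tables, and its log2 fold change was -0.73 with recovered counts (SE 0.21, edgeR adjusted p = 0.392).

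Other inhibitory ITIM receptors were on the same side. All 16 tested members of the list had a negative log2 fold change, with a median of -0.69. Without LILRB4 replicate 2 the median was -0.43 with 14 of 16 negative, and without LILRB4 replicate 1 it was -0.80 with 15 negative. With all libraries 8 were lower at an unadjusted p under 0.05 (5 without LILRB4 replicate 2 and 5 without SCG2 knockout replicate 3), beside 6.18% of all genes. Siglecg, a Siglec of B cells and myeloid cells, stood at 8.19, 12.9 and 12.7 CPM in SCG2 knockout libraries, against 22.9, 23.7 and 22.5 CPM in LILRB4 libraries (log2 fold change -1.03, SE 0.30, edgeR adjusted p = 0.301). Fcgr2b, the inhibitory Fc receptor, stood at 392, 351 and 274 CPM in SCG2 knockout libraries, against 533, 882 and 463 CPM in LILRB4 libraries (log2 fold change -0.88, SE 0.26). Lilrb4a, the mouse gene of LILRB4, stood at 723, 796 and 885 CPM in SCG2 knockout libraries, against 1459.9, 800.0 and 869 CPM in LILRB4 libraries and 767, 256 and 397 CPM in WT libraries (log2 fold change -0.38, SE 0.36, edgeR adjusted p = 0.752). Its near copy Lilr4b stood at 1979, 1968 and 2109 CPM in SCG2 knockout libraries and 3549, 1767 and 2547 CPM in LILRB4 libraries. For both genes LILRB4 replicate 1 was the highest library, the groups overlapped, and reads could be split between the copies.

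Of the receptor's adaptors and signalling partners 13 of 15 tested genes had a negative log2 fold change, with a median of -0.51. Beside 6.18% of all genes, 7 were lower at an unadjusted p under 0.05 (7 to 9 when any 1 of the 6 libraries was left out). Syk, the kinase that binds phosphorylated activating receptors, stood at 402, 431 and 375 CPM in SCG2 knockout libraries, against 764, 667 and 628 CPM in LILRB4 libraries and 334, 408 and 424 CPM in WT libraries (log2 fold change -0.77, SE 0.16, edgeR adjusted p = 0.235, DESeq2 adjusted p = 0.000172). Inpp5d, the lipid phosphatase SHIP-1 that ITIM receptors recruit, stood at 108, 119 and 121 CPM in SCG2 knockout libraries, against 228, 213 and 150.4 CPM in LILRB4 libraries (log2 fold change -0.76, SE 0.16, edgeR adjusted p = 0.235, DESeq2 adjusted p = 0.00357). Neither gene overlapped between the groups. Every knockout library was below every LILRB4 library in 7 of the 15 genes, beside 8.70% of all genes. Plaur, the urokinase receptor, stood at 567, 535 and 379.8 CPM in SCG2 knockout libraries, against 871, 1237 and 884 CPM in LILRB4 libraries. The phosphatase genes Ptpn6 (SHP-1) and Ptpn11 (SHP-2) had log2 fold changes of -0.51 and 0.11. Among 13 leukocyte tyrosine phosphatases 10 were negative (median -0.36, or -0.22 without LILRB4 replicate 2). Ptpre, Ptprj (-0.64), Ptpn1 (-0.67) and Ptpn12 (-0.36) were lower at an unadjusted p under 0.05, beside 6.18% of all genes.

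**Figure D4:**
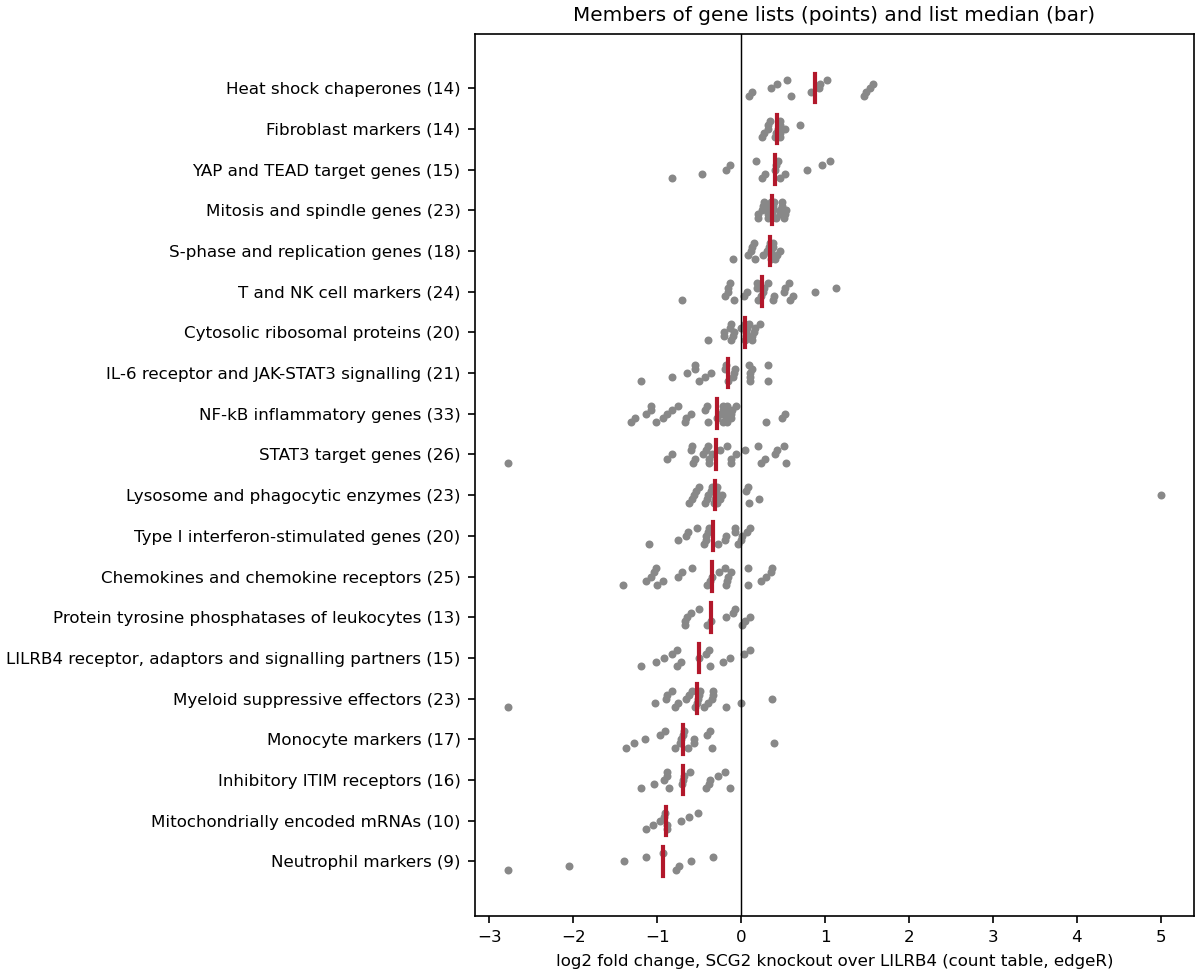
Log2 fold change of SCG2 knockout over LILRB4 libraries (count table, edgeR, horizontal axis) for each tested member (grey points) of 20 gene lists, with the list median as a red bar and the number of tested members in brackets. Heat shock chaperones have the highest median (0.88) and neutrophil markers the lowest (-0.93), and no member passed the adjusted threshold in edgeR.

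Monocyte markers themselves stood lower in SCG2 knockout libraries, with 16 of 17 tested members negative and a median of -0.69. Beside 6.18% of all genes, 10 were lower at an unadjusted p under 0.05. That number was 4 without SCG2 knockout replicate 3 and 7 without LILRB4 replicate 2, where the median was -0.49. Csf1r, the receptor for macrophage colony-stimulating factor, stood at 450.1, 385 and 325 CPM in SCG2 knockout libraries, against 584, 921 and 499 CPM in LILRB4 libraries (log2 fold change -0.79, SE 0.24, edgeR adjusted p = 0.318, DESeq2 adjusted p = 0.0449). Itgam, the integrin chain CD11b, stood at 194, 137 and 98.3 CPM in SCG2 knockout libraries, against 201, 395 and 242 CPM in LILRB4 libraries, and Fcgr1, the high-affinity IgG receptor, at 53.5, 47.6 and 34.4 CPM in SCG2 knockout libraries, against 68.2, 163 and 67 CPM in LILRB4 libraries. LILRB4 replicate 2 was the highest library for all 3. Ccr2 had a log2 fold change of -0.37 and Cx3cr1 of -0.34, and neither passed an unadjusted p of 0.05. In bulk RNA, fewer cells of a type and less RNA per cell cannot be told apart.

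Neutrophil markers had a median of -0.93, the lowest beside the 3 tested eosinophil genes (-0.99, or -0.63 without LILRB4 replicate 2), and all 9 tested members were negative. The count table holds only genes with at least 100 counts in LILRB4 replicates 1 and 3, which can favour negative values among low genes. With recovered counts, where that rule does not apply, all 14 tested members of the 19 listed were negative, with a median of -1.23. The filter of that fit can still keep a low gene through the LILRB4 libraries alone. This median therefore cannot show whether the choice of genes favours negative values. Retnlg, a resistin-like protein of neutrophils, stood at 16.4, 11.3 and 12.6 CPM in SCG2 knockout libraries, against 33.4, 90.7 and 43.4 CPM in LILRB4 libraries and 12.9, 20.8 and 9.22 CPM in WT libraries (log2 fold change -2.06, SE 0.40, edgeR adjusted p = 0.235, DESeq2 adjusted p = 9.24e-05). Cd177, a neutrophil surface protein outside the list, stood at 4.56, 4.15 and 2.57 CPM in SCG2 knockout libraries and 8.62, 30.3 and 12.7 CPM in LILRB4 libraries, with the WT libraries at 7.10, 44 and 23.6 CPM. Csf3r, the receptor for G-CSF, stood at 28, 34.4 and 34.4 CPM in SCG2 knockout libraries, against 53.5, 64.6 and 44.1 CPM in LILRB4 libraries. At an unadjusted p under 0.05, 8 of the 9 were lower in deposited counts, and 6 of 14 in recovered ones, beside 6.18% and 5.44% of all genes. Of the 9, 5 (S100a8, Mmp8, Mmp9, Trem1 and Il1r2) have counts that differ between the tables. S100a8, a calcium-binding alarmin of neutrophils and monocytes, was deposited at 115, 229 and 153 counts in LILRB4 libraries and recovered at 5, 229 and 153, with 37, 14 and 4 in SCG2 knockout libraries in both. By its recovered counts S100a8 would not meet the rule of the count table. The summed level of 19 neutrophil markers was 441, 459.9 and 343 CPM in SCG2 knockout libraries, against 534, 934 and 566 CPM in LILRB4 libraries, and Ly6g was at or near 0 in all 6.

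Eosinophil genes, a list added after the values were seen, showed LILRB4 replicate 2 apart again. Alox15, a lipoxygenase of eosinophils and resident macrophages, stood at 5.37, 4.51 and 5.27 CPM in SCG2 knockout libraries, against 8.25, 41.1 and 8.26 CPM in LILRB4 libraries (log2 fold change -1.93, SE 0.61, edgeR adjusted p = 0.338). Siglecf, the Siglec of mouse eosinophils, had 38, 21 and 35 recovered counts in SCG2 knockout libraries, against 86, 418 and 97 in LILRB4 libraries, and Ear6, an eosinophil ribonuclease with near copies, 4, 17 and 15 in SCG2 knockout libraries, against 39, 138 and 71 in LILRB4 libraries. The summed level of the 10 listed genes was 25.8, 23.9 and 25.8 CPM in SCG2 knockout libraries, against 33.9, 101 and 35.9 CPM in LILRB4 libraries, so replicates 1 and 3 of LILRB4 were also above the knockout. Adgre4, an adhesion receptor of myeloid cells, had the same pattern, with 3.58, 3.66 and 3.82 CPM in SCG2 knockout libraries and 6.95, 22.6 and 6.05 CPM in LILRB4 libraries. The part of neutrophil or eosinophil RNA in the values of other myeloid genes was not tested.

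Inflammatory genes under NF-kB control stood lower in SCG2 knockout libraries. Of 33 tested members 30 had a negative log2 fold change, and the median was -0.28 (-0.48 without LILRB4 replicate 2). Beside 6.18% of all genes, 11 were lower at an unadjusted p under 0.05 (10 to 15 when any 1 of the 6 libraries was left out). Cxcl2, a chemokine that attracts neutrophils, stood at 2969.9, 4085 and 2209 CPM in SCG2 knockout libraries, against 7174, 5576 and 7498 CPM in LILRB4 libraries and 1716, 2605 and 1664 CPM in WT libraries (log2 fold change -1.13, SE 0.27, edgeR adjusted p = 0.235, DESeq2 adjusted p = 0.0017). The SCG2 knockout libraries lay below every LILRB4 library and overlapped with the WT libraries.

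Csf3, which encodes G-CSF, stood at 31.4, 59.9 and 19 CPM in SCG2 knockout libraries, against 79, 55.4 and 130.2 CPM in LILRB4 libraries, and the groups overlapped (log2 fold change -1.26, SE 0.42, edgeR adjusted p = 0.359). Bcl3, a nuclear partner of NF-kB, stood at 67.5, 85.4 and 75.2 CPM in SCG2 knockout libraries, against 141, 128 and 134 CPM in LILRB4 libraries, and Irak3, a brake on Toll-like receptor signalling, at 24.9, 32.8 and 20.01 CPM in SCG2 knockout libraries, against 46.9, 39.7 and 56.2 CPM in LILRB4 libraries. Neither of these overlapped between the groups. Every knockout library was below every LILRB4 library in 9 of the 33 tested members, beside 8.70% of all genes. Il1b, which encodes interleukin-1 beta, and Tnf have counts that differ between the tables. The log2 fold change of Il1b was -1.31 in deposited counts (edgeR adjusted p = 0.256) and -0.98 with recovered counts (edgeR adjusted p = 0.461), and that of Tnf was -1.01 (edgeR adjusted p = 0.235) and -0.89 (edgeR adjusted p = 0.42). Subunits and feedback inhibitors of the pathway had log2 fold changes of -0.22 for Nfkb1, -0.13 for Rela, -0.28 for Nfkbia and -0.18 for Tnfaip3, none at an unadjusted p under 0.05.

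Among chemokines and their receptors 19 of 25 tested genes were negative, with a median of -0.34. At an unadjusted p under 0.05, 6 were lower, beside 6.18% of all genes. The 6 were Ccl6, Cxcl2, Cxcl3, Ccr1, Ccl9 and Ccrl2, with log2 fold changes of -1.41, -1.13, -1.07, -1.03, -1.02 and -1.0. The counts of Ccl6, Ccl9 and Ccrl2 differ between the tables, and with recovered counts their log2 fold changes were -1.21, -0.83 and -0.83. The median was -0.21 without LILRB4 replicate 2. The log2 fold changes of Ccl2, Ccl7 and Cxcl10 were 0.30, 0.36 and -0.16, none at an unadjusted p under 0.05.

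Interferon-stimulated genes of the type I list had 16 of 20 negative log2 fold changes and a median of -0.33. At an unadjusted p under 0.05, 5 were lower (2 without SCG2 knockout replicate 3), beside 6.18% of all genes. Ifih1, the cytosolic RNA sensor MDA5, stood at 39.9, 40.6 and 32.3 CPM in SCG2 knockout libraries, against 70.6, 56.4 and 114 CPM in LILRB4 libraries (log2 fold change -1.10, SE 0.24, edgeR adjusted p = 0.235, DESeq2 adjusted p = 0.00382). Rsad2, the antiviral protein viperin, stood at 71.2, 67.5 and 58.1 CPM in SCG2 knockout libraries, against 102, 73.8 and 134 CPM in LILRB4 libraries. Ifit2, Mx1 and Usp18 had log2 fold changes of 0.0, 0.07 and 0.11. The interferon-gamma list had a median of 0.12, with 12 of 18 positive, and its sign turned with single libraries: the median was -0.033 without SCG2 knockout replicate 2 and -0.026 without LILRB4 replicate 3, with 8 of 18 positive in both settings.

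Suppressive effectors of myeloid cells stood lower on both tables. Of 23 tested members 21 were negative, with a median of -0.52 in deposited and -0.53 in recovered counts. At an unadjusted p under 0.05, 12 were lower with either (9 to 14 with the count table when any 1 of the 6 libraries was left out). Over all genes these shares were 6.18% in deposited and 5.44% in recovered counts. Arg2, the mitochondrial arginase, stood at 51.1, 56.1 and 35.1 CPM in SCG2 knockout libraries, against 80.8, 79.3 and 86 CPM in LILRB4 libraries (log2 fold change -0.79, SE 0.21, edgeR adjusted p = 0.256, DESeq2 adjusted p = 0.0267). Havcr2, the checkpoint receptor TIM-3, stood at 95.4, 115 and 103 CPM in SCG2 knockout libraries, against 213, 205 and 135 CPM in LILRB4 libraries (log2 fold change -0.82, SE 0.20, edgeR adjusted p = 0.235, DESeq2 adjusted p = 0.0114). Cybb, the catalytic subunit of the phagocyte NADPH oxidase, stood at 268, 386 and 281 CPM in SCG2 knockout libraries and 532, 410.4 and 496 CPM in LILRB4 libraries. For all 3 the groups did not overlap. Every SCG2 knockout library was below every LILRB4 library in 13 of the 23 members with deposited counts, beside 8.70% of all genes. The ectoenzyme gene Entpd1 (CD39) had a log2 fold change of -0.89, and Ncf1 and Ncf4, which encode oxidase subunits, -0.55 and -0.49, all 3 lower at an unadjusted p under 0.05. Cd274 (PD-L1) and Pdcd1lg2 (PD-L2) had -0.50 and 0.37.

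Arg1, cytosolic arginase and the best known enzyme of these cells, depends on the table used. It was deposited at 15191, 12485 and 7172 counts in SCG2 knockout libraries and 26183, 38792 and 26601 in LILRB4 libraries, and recovered at 26183, 12485 and 7172 in SCG2 knockout libraries and 15191, 38792 and 22601 in LILRB4 libraries. The values of SCG2 knockout replicate 1 and LILRB4 replicate 1 are thus exchanged between the tables, and LILRB4 replicate 3 is also unequal. The log2 fold change was -1.02 in deposited counts (SE 0.26, edgeR adjusted p = 0.248, DESeq2 adjusted p = 0.00507) and -0.37 with recovered counts (SE 0.39, edgeR adjusted p = 0.841), where the groups overlap. Nos2, inducible nitric oxide synthase, was -0.40 in deposited counts (edgeR adjusted p = 0.553) and -0.31 with recovered counts (edgeR adjusted p = 0.728). Il10 was -0.88 and -1.38, and Tgfb1 -0.52 and -0.46, with adjusted p above the threshold on both. Neither table says which holds the intended values.

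For IL-6 and STAT3, which the series title names, no gene passed the adjusted threshold in edgeR with either table. Il6 was deposited at 2094, 2813 and 1238 counts in SCG2 knockout libraries and 3097, 3344 and 4376 in LILRB4 libraries, and recovered at 2094, 2813 and 1238 in SCG2 knockout libraries and 3097, 3344 and 6376 in LILRB4 libraries. Its log2 fold change was -0.43 in deposited counts (SE 0.24, edgeR adjusted p = 0.541) and -0.67 with recovered counts (SE 0.27, edgeR adjusted p = 0.529). Counts of Stat3 were deposited as 9425, 9195 and 13407 in SCG2 knockout libraries and 15890, 14978 and 15439 in LILRB4 libraries, and recovered at 9425, 14978 and 13407 in SCG2 knockout libraries and 15890, 9195 and 15439 in LILRB4 libraries, so the values of the replicates numbered 2 are exchanged. The log2 fold change of Stat3 was -0.16 in deposited counts (SE 0.26, edgeR adjusted p = 0.874) and 0.22 with recovered counts (SE 0.31, edgeR adjusted p = 0.893), so its direction depends on the table.

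The receptor genes Il6ra and Il6st (gp130) stood at 51.2, 53.4 and 53.2 CPM and 102, 139 and 142 CPM in SCG2 knockout libraries, against 59.2, 121 and 50.1 CPM and 141, 113 and 102 CPM in LILRB4 libraries, and both overlapped. The log2 fold changes were -0.55 (SE 0.30) and 0.10 (SE 0.19), and that of Il6st turned to -0.02 without SCG2 knockout replicate 3 and to -0.03 without LILRB4 replicate 3. Socs3, a feedback inhibitor induced by STAT3, stood at 1877, 1867 and 1149.6 CPM in SCG2 knockout libraries, against 2709, 1686 and 2748 CPM in LILRB4 libraries (log2 fold change -0.55, SE 0.25, edgeR adjusted p = 0.454). Of the related cytokines and receptors, Osm, which encodes oncostatin M, stood at 419, 366 and 208 CPM in SCG2 knockout libraries, against 518, 1181 and 570.2 CPM in LILRB4 libraries (log2 fold change -1.19, SE 0.38, edgeR adjusted p = 0.332), and Lifr, the receptor for leukaemia inhibitory factor, at 21.9, 19.2 and 16.6 CPM in SCG2 knockout libraries, against 30.4, 33.6 and 26.2 CPM in LILRB4 libraries (log2 fold change -0.64, SE 0.18). Lifr and Osm were the members of the 21 that were lower at an unadjusted p under 0.05 with the count table, beside 6.18% of all genes, and neither overlapped, beside 8.70% of all genes with every knockout library below. The number of 2 was 2 to 5 when any 1 of the 6 libraries was left out, and 5 with recovered counts. The 21 genes had 14 negative values and a median of -0.16, and 26 tested STAT3 target genes had 18 negative values, a median of -0.30, 4 lower (S100a8, Bcl3, Mmp9 and Pim1) and 3 higher (Klf4, Birc5 and Myc) at an unadjusted p under 0.05. Over all genes these shares were 6.18% lower and 4.88% higher. With any 1 of the 6 libraries left out, 3 to 8 targets were lower and 0 to 2 higher. The counts of S100a8 and Mmp9 differ between the tables. With recovered counts of the same genes their unadjusted edgeR p was 0.0565 and 0.369. Of 28 targets tested with recovered counts of all genes, 5 were lower and 1 higher at an unadjusted p under 0.05. The median of the 21 genes was -0.074 without LILRB4 replicate 1, and that of the targets -0.19 without LILRB4 replicate 2.

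The 47 genes whose counts differ between the tables lean toward the lower side with the count table. Of the 56 differing values, 41 lie in LILRB4 replicate 1, 3 each in LILRB4 replicates 2 and 3, 2 each in SCG2 knockout replicates 1 and 2, and the rest in WT. Some are round steps: in LILRB4 replicate 1 the deposited count is larger by 70000 for Il1b, 50000 for Cd14 and 30000 for Eno1. In LILRB4 replicate 3 it is smaller by 5000 for Il10 and 2000 for Il6. The values of Ccl9, Lyn, Il1r2 and Tgfbr1 are exchanged between LILRB4 replicate 1 and WT replicate 2. Those of Cox5a are exchanged between LILRB4 replicate 1 and SCG2 knockout replicate 1. The main edgeR fit uses the deposited values. The log2 fold change of SCG2 knockout over LILRB4 was lower with the count table than with recovered counts in 45 genes and higher in 2, Il6 and Il10. It was negative in 46 genes (median -0.60) when computed from the count table, and in 40 (median -0.41) when computed from the recovered values. In 6 genes the sign differs. At an unadjusted p under 0.05, 29 of the 47 were lower in deposited counts, and 20 in recovered ones, and every knockout library was below every LILRB4 library in 30 and 19. Over all genes, 6.18% were lower by that p in deposited counts, and 702 of 9877 with recovered counts of the same genes. Every knockout library was below in 8.70% of genes with deposited counts, and in 7.85% of 15743 with recovered counts. DESeq2 called 15 of the 47 lower in the fit of the 9877 deposited genes. In its fit of recovered counts, which also holds more genes (15743), it called 2 of the 47 lower. Lyn, a kinase that phosphorylates ITIM receptors, is an example, with log2 fold changes of -1.19 (DESeq2 adjusted p = 0.00229) and -0.90 from the 2 sources, and Cd14, the lipopolysaccharide co-receptor, another, with -1.28 and -0.95. The log2 fold changes of Sirpa, an ITIM receptor, were -0.88 and -0.68, and those of Tgfbi, a matrix protein induced by TGF-beta, -0.67 and -0.50. Cox5a, of the respiratory chain, and Eno1, of glycolysis, had -0.54 and -0.43 in deposited counts and -0.11 and -0.12 with recovered counts.

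**Figure D5:**
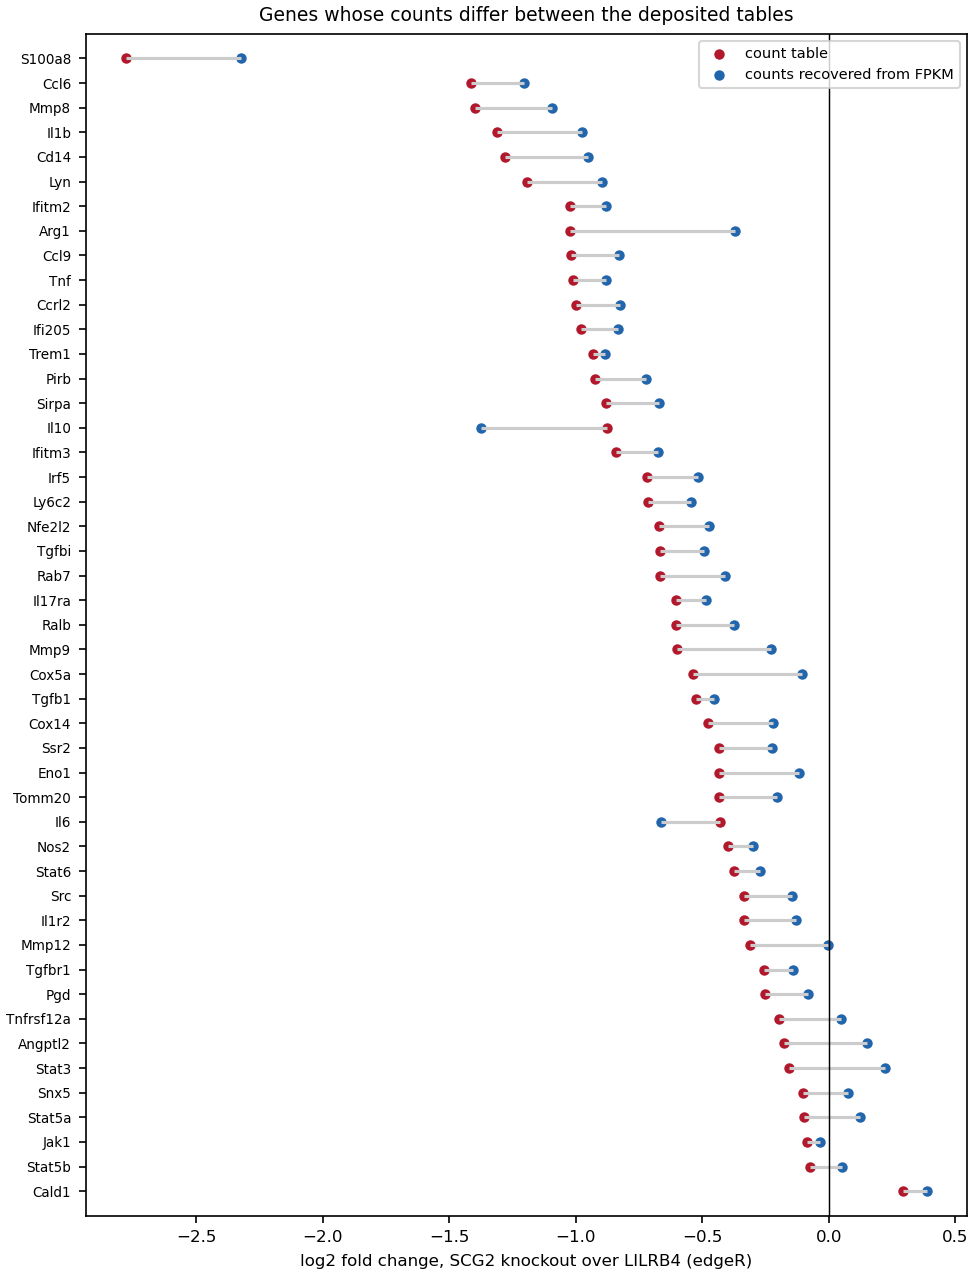
Log2 fold change of SCG2 knockout over LILRB4 libraries (edgeR, horizontal axis) for the 47 genes with unequal counts, from the count table (red) and from recovered counts of the same genes (blue), joined by a line. In 45 genes the red point lies to the left, and in 6 the points lie on opposite sides of 0.

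Genes absent from the count table were tested with recovered counts and with FPKM. The count table holds protein-coding genes with at least 100 counts in LILRB4 replicates 1 and 3, so it leaves out 388 protein-coding genes with a mean of 100 or more recovered counts in SCG2 knockout libraries, and 631 with such a mean in LILRB4 libraries. EdgeR on recovered counts tested 15743 genes, called 0 higher (0%) and 0 lower (0%), and gave 516 higher (3.28%) and 857 lower (5.44%) for an unadjusted p under 0.05. In 1197 genes (7.60%) every SCG2 knockout library was above every LILRB4 library, and in 1236 (7.85%) below. On log2(FPKM + 1), limma tested 12910 genes and called 0 (0%) in each direction. An unadjusted p under 0.05 was reached there by 369 genes on the higher side (2.86%) and 818 on the lower (6.34%). Of the 15743 genes, 5866 are absent from the count table, 3320 of them protein coding, and an unadjusted p under 0.05 was reached by 181 of the 5866 on the higher side (3.09%) and by 148 on the lower (2.52%). Every SCG2 knockout library was above every LILRB4 library in 453 of them (7.72%) and below in 266 (4.53%), and their median log2 fold change was 0.11.

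Beside Gm42031, the absent genes with the smallest p on the higher side included a ribosomal protein pseudogene, immunoglobulin segments and the coding genes Enpp2 and Plek2. Gm6087 had 41, 54 and 47 recovered counts in SCG2 knockout libraries, against 15, 28 and 16 in LILRB4 libraries, and Rps26-ps1, the pseudogene, 237, 283 and 291 in SCG2 knockout libraries, against 135, 80 and 158 in LILRB4 libraries. Igkv3-4, a kappa light chain segment, had 46, 20 and 13 in SCG2 knockout libraries and 0, 0 and 3 in LILRB4 libraries, and the heavy chain segment Ighv2-9-1 18, 28 and 14 in SCG2 knockout libraries, against 0, 0 and 3 in LILRB4 libraries. Such segments are used by the B cell clones that rearranged them, and many have close copies. The summed level of 15 B and plasma cell markers was 422, 406 and 1532 CPM in SCG2 knockout libraries, against 1112, 62.7 and 1111 CPM in LILRB4 libraries, and its part in these values was not tested. Among protein-coding genes, Enpp2, which encodes autotaxin, the enzyme that makes lysophosphatidic acid, had 161, 95 and 87 recovered counts in SCG2 knockout libraries, against 31, 42 and 101 in LILRB4 libraries (log2 fold change 1.41, SE 0.38, edgeR adjusted p = 0.339). Plek2, a pleckstrin relative, had 130, 111 and 103 in SCG2 knockout libraries, against 54, 100 and 92 in LILRB4 libraries (log2 fold change 0.88, SE 0.24), and AC133103.1 had 42, 17 and 30 in SCG2 knockout libraries, against 5, 9 and 16 in LILRB4 libraries.

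On the lower side the absent gene with the smallest p was AI504432, with 1037, 996 and 891 recovered counts in SCG2 knockout libraries, against 1744, 2877 and 2428 in LILRB4 libraries (log2 fold change -0.89, SE 0.15, edgeR adjusted p = 0.23, DESeq2 adjusted p = 0.000249). G530011O06Rik followed with 28, 31 and 36 in SCG2 knockout libraries and 86, 302 and 232 in LILRB4 libraries (log2 fold change -2.25, SE 0.40). F830208F22Rik, Gm34084 and Gm48065 had log2 fold changes of -1.44, -1.46 and -1.28. Dach1, a transcriptional regulator, had 27, 20 and 33 recovered counts in SCG2 knockout libraries, against 78, 160 and 92 in LILRB4 libraries and 25, 17 and 14 in WT libraries (log2 fold change -1.66, SE 0.39, edgeR adjusted p = 0.291). Ighv14-4, a heavy chain segment, had 0, 0 and 0 counts in SCG2 knockout libraries, against 33, 21 and 21 in LILRB4 libraries and 0, 0 and 0 in WT libraries. Against a floor of 3 counts per library its mean was at least 6.43-fold lower in SCG2 knockout libraries. Only its LILRB4 counts let it pass the filter, so this bound describes the counts and is not a test. The limit given above for such segments, B cell clones and close copies, holds here too. Secretory granule genes related to SCG2 were mostly absent too: Chga had 0, 2 and 2 recovered counts in SCG2 knockout libraries and 15, 8 and 12 in LILRB4 libraries, and Pam and Cpe, the tested members, had log2 fold changes of 0.29 and 0.30.

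Mitochondrially encoded mRNAs stood lower, with all 10 tested genes negative, a median of -0.89 and 6 lower at an unadjusted p under 0.05 (1 without LILRB4 replicate 2 and 4 without SCG2 knockout replicate 1). Over all genes that measure gave 6.18% lower and 4.88% higher, the shares to set beside each count of this paragraph. The summed level was 4800.5, 8795 and 11188 CPM in SCG2 knockout libraries, against 11667, 18136 and 10493 CPM in LILRB4 libraries and 10424, 9644 and 6894 CPM in WT libraries, and the groups overlapped. Without LILRB4 replicate 2 their median log2 fold change was -0.58, with 7 of 10 negative. Lysosome and phagocytic enzymes had 18 of 23 negative values and a median of -0.32 (-0.50 without SCG2 knockout replicate 1 and -0.14 without LILRB4 replicate 2), and 4 lower at an unadjusted p under 0.05 (0 to 11 when any 1 of the 6 libraries was left out). Nuclear respiratory chain genes, cytosolic ribosomal proteins, glycolysis genes, MHC class I and MHC class II genes had medians of -0.01, 0.04, -0.10, 0.04 and -0.13, with at most 1 member of each lower and none higher at an unadjusted p under 0.05. The sign of the respiratory chain, ribosomal and MHC class I medians turned with single libraries left out. Sterol and fatty acid synthesis genes had a median of 0.12, which was -0.0049 without LILRB4 replicate 1, 0.032 without SCG2 knockout replicate 3, 0.058 without LILRB4 replicate 3 and 0.30 without LILRB4 replicate 2, and 3 members higher at an unadjusted p under 0.05 (0 to 3 with any 1 of the 6 libraries left out). The stress response list had a median of 0.18, which was 0.033 without SCG2 knockout replicate 1 and 0.06 without LILRB4 replicate 1. The NRF2 antioxidant list had a median of 0.06, which was -0.14 without SCG2 knockout replicate 3 and -0.0015 without LILRB4 replicate 2, and 3 members lower at an unadjusted p under 0.05 (1 to 4 with any 1 of the 6 libraries left out).

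Other cell types were measured in the same libraries. The summed level of 29 T and NK cell markers was 1607, 2803 and 2731 CPM in SCG2 knockout libraries, against 2966, 448 and 2342 CPM in LILRB4 libraries, and their median log2 fold change of 0.25 turned to -0.25 without LILRB4 replicate 2. Macrophage markers summed to 4969, 2923 and 2460.3 CPM in SCG2 knockout libraries and 2502, 4669 and 2941 CPM in LILRB4 libraries, and dendritic cell markers to 1718, 1950.2 and 1741 CPM in SCG2 knockout libraries and 1793, 1458 and 1705 CPM in LILRB4 libraries. The macrophage sum includes Lyz2, while 14 of the 18 tested macrophage markers had a negative log2 fold change. Their median was -0.28 (-0.60 without SCG2 knockout replicate 1 and 0.08 without LILRB4 replicate 2). Endothelial markers, at 75.6, 98.5 and 95.8 CPM in SCG2 knockout libraries and 151, 64.3 and 113 CPM in LILRB4 libraries, and 12 colon epithelial markers, at 164, 103 and 100.1 CPM in SCG2 knockout libraries and 101, 202 and 93.2 CPM in LILRB4 libraries, were low. None of the 7 tested endothelial markers was lower at an unadjusted p under 0.05, and 5 were without LILRB4 replicate 2. All of these summed levels overlapped between the groups. With the T and NK level of each library as a covariate, edgeR called 3 genes higher (Nppb, Lyz2 and Krt16) and 5 lower (St7, Cdk5r1, Retnlg, Kcnj2 and Robo4).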

How the data were processed

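Poly-A RNA libraries that keep the strand were made from sorted M-MDSCs, per the labels' protocols. The authors deposited raw counts for part of the genes and FPKM for all. HISAT2 2.0.5 and featureCounts 1.5.0-p3 are named, per the submitters' processing notes; the build, annotation and strand setting were not given in the sources used here. Coordinates in the text are those the deposited tables give, which were compared with GENCODE vM21 (GRCm38): of 236 named genes 235 were found and 223 had the same chromosome, start and end.

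Groups were taken from the genotype labels. Deposited counts were tested with edgeR 4.0.16 in R 4.3.3 (quasi-likelihood, robust, TMM scaling, filterByExpr with a minimum count of 10), fitting all 9 libraries with 6 residual degrees of freedom. CPM of single genes use TMM-scaled library sizes. Summed list levels are CPM of recovered counts without that scaling. An SE is that of the log2 fold change, taken from the F statistic. Deposited FPKM were tested with limma 3.58.1 on log2(FPKM + 1), for genes with an FPKM of 1 or more in at least 3 libraries, a scale that understates the change of low genes. Whole counts were recovered from the steps of the deposited FPKM (100% of values whole within 0.01) and tested with edgeR in the same way. DESeq2 1.42.0 was an alternative, as were other scaling, no filter, 6 libraries only, a replicate block, each library left out, a T and NK marker covariate and another pseudocount of 0.1. Benjamini-Hochberg adjustment ran over every gene of a fit. The procedures were tested on simulated data. Depth is given as the total count per library, and limits from a count of 0 cover counting error only.

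Members and gene lists were chosen with earlier results of these data known, and 1 of the 44 lists, the eosinophil markers, after the values were seen. Genes are named where they are among the 12 smallest p on either side, the 4 largest fold changes at a mean of 5 CPM or more, the 8 smallest p on either side among genes absent from the count table, up to 4 members of a list, or part of the IL-6, STAT3 and LILRB4 sets. A few others were named after their values were seen: the members listed to make up a count, and Egf and Siglecf.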

Additional observations from a re-analysis of the deposited data

How the results depend on the processing

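With the count table, the numbers of genes past the adjusted threshold were 12 higher and 175 lower with DESeq2, and 3 higher and 5 lower with the T and NK covariate, against 0 and 0 in edgeR. Leaving out 1 library gave 0 to 1 higher, the 1 being Lyz2 without WT replicate 1, and 0 lower. For the FPKM table the numbers were 15 higher and 150 lower with DESeq2 on recovered counts, and 1 higher (Gm42031) with 6 libraries only. Leaving out 1 library gave 0 to 2 higher, the 2 being Lyz2 and Gm42031 without WT replicate 1, and 0 to 1 lower (Igkv14-111 without LILRB4 replicate 2). In edgeR on recovered counts, settings added after seeing the data gave 1 higher with 6 libraries only, 0 to 1 higher with 1 library left out, and 0 to 2 lower (Ighv9-1 and Igkv8-18 without LILRB4 replicate 2). Other scaling, no filter and another pseudocount gave 0 and 0. The cause of these differences was not tested. With the replicate number as a block, edgeR gave 0 higher and 0 lower with the count table. Samples with the same number deviated from their group means with correlations of -0.544, -0.303 and -0.177. Between samples of unlike numbers these correlations ran from -0.203 to 0.392. With 3 libraries a group they cannot show whether samples of the same number are related, and the labels do not say.

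Of 2089 log2 fold changes of 112 named genes under the alternatives, 14 changed sign, in 5 genes. With recovered counts the log2 fold change of Stat3 was 0.22 (same genes) and 0.22 (all genes), and with 1 library left out it was -0.46 to 0.0645. In the same settings the log2 fold change of Stat5a was 0.12 and 0.12, and -0.27 to 0.0937. Likewise the log2 fold change of Stat5b was 0.052 and 0.048, and -0.20 to 0.13. With 1 library left out, the log2 fold change of Jak1 ran from -0.25 to 0.0851 and the log2 fold change of Il6st from -0.0277 to 0.22. Of 429 list medians 18 moved by more than the spread between replicates, and of 308 summed levels 14 did. The 3 libraries a group and no detectable Scg2 limit what these data can show.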
